A study of Mus musculus with 4 samples.

Results

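Calcineurin and protein phosphatase 1 (PP1) are the serine/threonine phosphatases examined here in mouse testis. The set comprised 10 genes chosen by symbol, out of 17924 gene symbols listed: 5 calcineurin subunit genes, 2 PP1 catalytic genes and 3 PP1 inhibitor or regulator genes. All 10 were listed and all 10 passed the filter on low values, which kept genes of at least 1 CPM (read counts scaled to a library total of 1000000) in at least 2 libraries. Bulk testis RNA had been sequenced from 2 wild-type (WT) samples and 2 Tas1r3 KO samples of male C57BL/6 mice, all on a normal diet (18 weeks). KO mice lack TAS1R3, which forms the sweet taste receptor with TAS1R2 and the umami receptor with TAS1R1. The question is how testicular transcript levels differ when this subunit is missing. The labels do not give the deleted part of Tas1r3 or say whether each sample was a separate animal. The p-values therefore reflect only how far these samples differ, which may be technical.

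Calcineurin is switched on by calcium. It pairs a catalytic A subunit with a calcium-binding B subunit. Mammals have a germ-cell pair, Ppp3cc and Ppp3r2, and widely expressed subunits, the catalytic Ppp3ca and Ppp3cb and the regulatory Ppp3r1; in the mouse the germ-cell enzyme acts in the sperm midpiece and is needed for male fertility. PP1 consists of a catalytic subunit bound to one of many regulators. In the mouse, Ppp1cc makes 2 splice forms, gamma 1 and gamma 2, of which gamma 2 is the form enriched in testis and sperm, and loss of the gene leaves males infertile. Ppp1r2 (inhibitor 2), Ppp1r7 (the SDS22 protein) and Ppp1r11 (inhibitor 3) bind PP1 and hold back its activity, and all of them are known from sperm extracts.

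Coding tails of the transcripts Ppp1cc-202, Ppp1cc-201 and Ppp1ccb-202 are shown because gamma 1 and gamma 2 part there. They come from GENCODE release M21 transcripts (GRCm38) and run from coding base 914 to the stop codon. Lower case marks the last 30 bases that all of them share, and capitals mark what follows.
Ppp1cc-202: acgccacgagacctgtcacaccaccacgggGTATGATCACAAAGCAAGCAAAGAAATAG
Ppp1cc-201: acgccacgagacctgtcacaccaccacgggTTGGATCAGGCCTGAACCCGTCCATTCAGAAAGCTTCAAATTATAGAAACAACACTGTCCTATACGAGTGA
Ppp1ccb-202: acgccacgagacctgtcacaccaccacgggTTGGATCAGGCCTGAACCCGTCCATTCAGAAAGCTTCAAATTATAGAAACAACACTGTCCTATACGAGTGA
The first is the long Ppp1cc mRNA (2384 bases, 323 codons, the gamma 1 form), which GENCODE pairs with the RefSeq mRNA NM_013636 of the deposited tables. The second is the short Ppp1cc mRNA (1442 bases, 337 codons, the gamma 2 form). The third belongs to Ppp1ccb, a copy of Ppp1cc on chromosome 7 (mm39, from 119339133 to 119341448), and its tail is letter for letter that of gamma 2. Over the whole length, 1435 of 1435 aligned bases were identical between the Ppp1ccb transcript and the short Ppp1cc mRNA, with 1 gap of 3 bases. The rows listed under Ppp1cc were 2387 and 2577 bases long, and the short mRNA was not analysed here under that symbol. Over the aligned bases, reads of the gamma 2 mRNA and reads of Ppp1ccb therefore cannot be told apart in these values. The Ppp1ccb transcript aligned here has 1437 bases. The deposited Ppp1ccb values are for the RefSeq entry NM_001370947.1 (1451 bases), which was not itself aligned. The long Ppp1cc mRNA also matched the Ppp1ccb transcript, at 1145 of 1145 aligned bases (79.7% of the Ppp1ccb length, 3 gap bases). Gamma 1 reads from that stretch have the same limit.

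The 2 calcineurin B genes are easier to separate. Their first 90 coding bases are shown with the 27 bases that differ in capitals.
Ppp3r1-201: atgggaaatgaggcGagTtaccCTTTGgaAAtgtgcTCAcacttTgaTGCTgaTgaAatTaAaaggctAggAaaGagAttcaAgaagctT
Ppp3r2-201: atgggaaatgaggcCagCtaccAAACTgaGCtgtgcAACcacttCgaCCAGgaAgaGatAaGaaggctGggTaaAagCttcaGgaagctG
The aligned stretch between the 2 transcripts was 405 bases, with 306 identical (75.6%). PP1 alpha (Ppp1ca) and the short Ppp1cc mRNA shared 736 of 923 aligned bases (79.7%).

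The libraries differed in depth with genotype. The smallest step between low values, taken as 1 read, put the WT libraries at about 1719356 and 1807694 assigned reads and the KO libraries at about 748637 and 597936. Read numbers are rounded estimates, and intervals on reads cover counting error only. Tas1r3 was at 13.8 and 20.5 CPM in WT against 1.34 and 0 CPM in KO. Testis germ-cell and somatic markers were present in all libraries. The summed level of 6 elongating spermatid markers was 27044 and 26999.5 CPM in WT and 22792 and 33323 CPM in KO, so the KO samples lay on either side of WT. The 4 round spermatid markers summed to 689 to 708 CPM in WT and 761 to 784 CPM in KO, and the 5 spermatocyte markers to 591 to 595 and 599 to 787 CPM. The 5 Sertoli cell markers summed to 130 to 138 CPM in WT and 121 to 182 CPM in KO, and the 5 Leydig cell markers to 1639 to 1753 and 1489 to 1548 CPM. Spermatogonial markers (6 genes) summed to 109 to 116 CPM in WT and 147 to 148 CPM in KO. Peritubular myoid markers (4 genes) summed to 92.5 to 102 and 75.3 to 76.3 CPM. Neither sum overlapped between the genotypes, nor did the round spermatid, spermatocyte and Leydig cell sums. Among single genes, 34.4% of all tested did not overlap either. The 4 red cell markers summed to 38.70 and 119 CPM in WT and 27.0 and 38.67 CPM in KO. That sum did not overlap, but KO sample 2 lay below WT sample 1 by less than the value of 1 read. Hbb-bt was below the value of a read in both KO samples. The 3 endothelial markers summed to 6.69 to 21.0 CPM and the 3 macrophage markers to 11.2 to 26.8 CPM, each with overlap, and Pecam1 was below the value of a read in WT sample 1 and KO sample 2. The part of these cells in the values below was not tested. Of 3 epididymal markers only Crisp1 was listed, at 40.7 CPM in WT sample 1 and at 0 in the other libraries.

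Levels between genes were compared per kilobase of transcript. Ppp1r11 had the highest level of the 10 in every library, at 489 ± 45.003 CPM per kilobase in WT and 405 ± 62.8 in KO (SD, n = 2 each, as for all such values). Ppp3r2 came next in every library, at 197 ± 6.38 in WT and 211 ± 22.2 in KO, and Ppp3cc followed at 90.3 ± 2.51 and 86.5 ± 3.78. Behind these 3 genes the order was not fixed. Ppp1r2, Ppp1cc, Ppp1ca, Ppp1r7 and Ppp3ca lay between 13.9 and 31.9 CPM per kilobase. The order among them was the same in WT sample 2 and KO sample 2 and differed in the other libraries. Ppp3cb and Ppp3r1 were lowest, between 2.80 and 7.40 CPM per kilobase, with overlapping ranges. Ppp1cc is ranked here as listed, without Ppp1ccb, whose reads over the aligned bases cannot be told from those of gamma 2. Summed with Ppp1ccb, it was at 564 ± 23.2 CPM per kilobase in WT and 581 ± 5.29 in KO. That sum was above Ppp1r11 in every library. Set among all listed genes, Ppp1r11 lay above 98.9% to 99.3% of them per kilobase, Ppp3r2 above 97.2% to 97.7% and Ppp3cc above 92.8% to 93.6%, whereas Ppp3r1 lay above 40.3% to 58.4%.

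**Figure D1:**
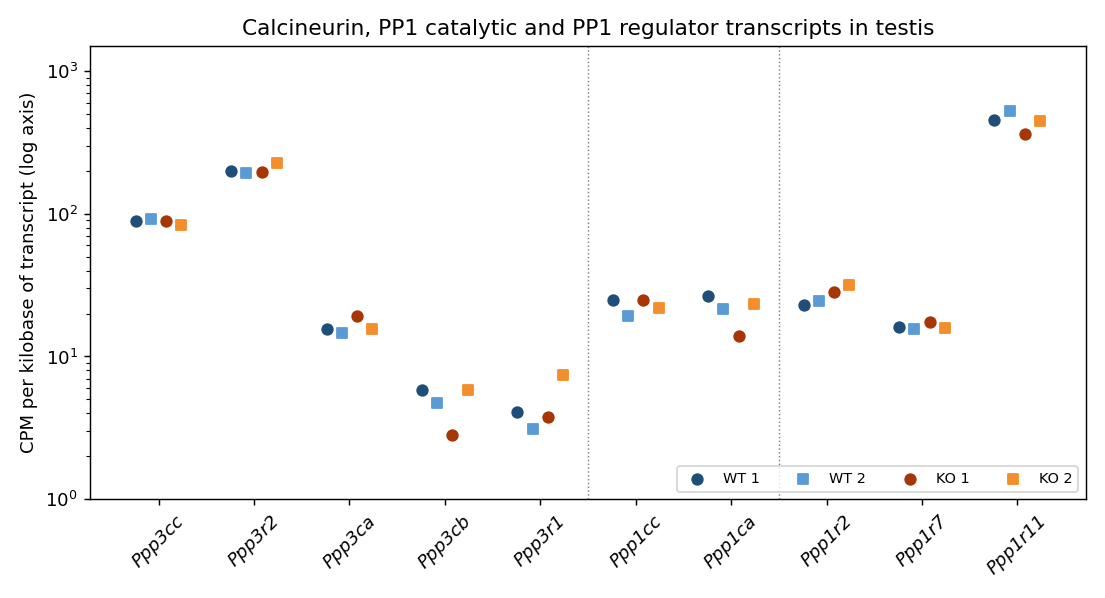
Level of each gene in each library in CPM per kilobase of transcript (log axis); circles and squares are samples 1 and 2 of WT (blue) and KO (orange), and dotted lines separate calcineurin subunits, PP1 catalytic subunits and PP1 regulators. Ppp1r11, Ppp3r2 and Ppp3cc stand above the other genes in all 4 libraries. Ppp1cc is shown as listed, without Ppp1ccb.

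Among calcineurin catalytic subunits, the germ-cell gene Ppp3cc held most of the transcripts. Its share of the summed Ppp3cc, Ppp3ca and Ppp3cb level per kilobase was 80.5% and 82.7% in WT and 80.2% and 79.7% in KO. The KO mean was 1.67 percentage points below the WT mean, against an SD of 1.59 between the WT samples and 0.384 between the KO samples, and it was 4.27 points above it when only the most abundant transcript row of each gene was used. Without division by length, the Ppp3cc share was 65.0% and 68.1% in WT and 63.8% and 63.6% in KO. The regulatory side was more one-sided. Ppp3r2 made up 98.0% and 98.4% of the summed Ppp3r2 and Ppp3r1 level in WT and 98.1% and 96.8% in KO. Within each library the Ppp3r2 level was 30.7 to 61.4 times the Ppp3r1 level per kilobase, and Ppp3cc was 4.64 to 6.35 times Ppp3ca. The germ-cell B subunit also exceeded its catalytic partner, by 2.09 to 2.71 times per kilobase. In whole testis, more cells of a type and more RNA per cell cannot be told apart, so these shares describe the tissue and not a cell.

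**Figure D2:**
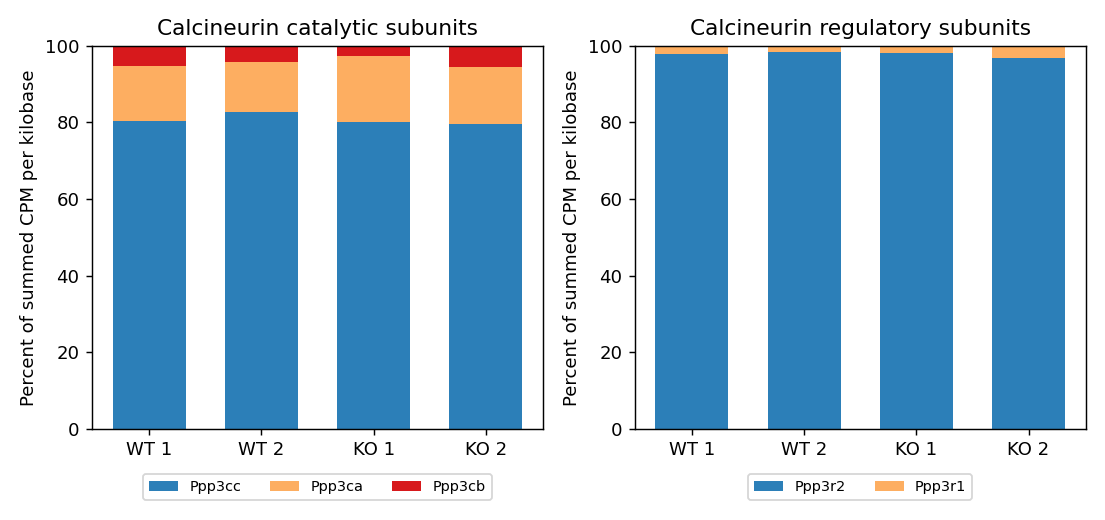
Percent of the summed CPM per kilobase held by each calcineurin catalytic subunit (left) and regulatory subunit (right), one stacked bar per library. Ppp3cc fills 79.7% to 82.7% of the catalytic bars and Ppp3r2 fills 96.8% to 98.4% of the regulatory bars.

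The germ-cell calcineurin genes differed between genotypes by less than the test could call. Ppp3cc (chromosome 14 of mm39, from 70455314 to 70526947) was at 181 and 188 CPM in WT against 182 and 171 CPM in KO. The groups overlapped, and the log2 fold change (KO over WT, on log2(CPM + 1), as for all that follow) was -0.07 with SE 0.14. Its 95% interval of -0.38 to 0.25 is the range of changes that these samples allow (limma adjusted p = 0.967). Ppp3r2, which lies on chromosome 4 from 49678747 to 49681984 within the span of Grin3a on the same strand, was at 600.1 and 573 CPM in WT against 584 and 677 CPM in KO. KO sample 2 was the highest library for this gene, as it was for the summed elongating spermatid markers, and the part of those cells in the value was not tested. Ppp3r2 had a log2 fold change of 0.10 (SE 0.13, 95% interval -0.20 to 0.40, limma adjusted p = 0.947). Grin3a itself was at 0.553 to 8.80 CPM.

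The widely expressed subunits were lower and scattered more. Ppp3ca (chromosome 3, from 136375827 to 136643489) was at 75.4 and 69.95 CPM in WT against 92.9 and 75.4 CPM in KO. The genotypes did not overlap, but KO sample 2 exceeded WT sample 1 by less than the value of 1 read. The log2 fold change of 0.20 had an SE of 0.18 (limma adjusted p = 0.942), and it was 0.05 without KO sample 1 and 0.35 without KO sample 2. Ppp3cb (chromosome 14, from 20549432 to 20596642) was at 22.4 and 18.1 CPM in WT against 10.7 and 22.2 CPM in KO. The low KO value stood for about 8 reads. The span of Ppp3cb overlaps 1810062O18Rik on the other strand by 282 bases, and that gene was at 0 to 3.75 CPM. Ppp3r1 (chromosome 11, from 17109298 to 17150381) was at 11.6 and 8.85 CPM in WT against 10.7 and 20.9 CPM in KO, about 8 and 13 reads in KO. KO sample 1 was thus low and KO sample 2 high for Ppp3r1, and WT lay near the lower of them. The 95% intervals of these log2 fold changes were wide, from -1.26 to 0.53 for Ppp3cb and from -0.44 to 1.49 for Ppp3r1 (limma adjusted p = 0.942 for each). That of Ppp3r1 was 0.98 without KO sample 1 and 0.07 without KO sample 2.

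Transcript rows within the catalytic genes differed between libraries more than the gene sums did. For Ppp3cc the row NM_008915 held 86.7% and 89.8% of the gene in WT and 88.0% in KO sample 1, but 64.1% in KO sample 2, where NM_001304991 held 33.5% against 2.27% to 7.34% in the other libraries. For Ppp3ca the row NM_001293622 held 65.7% and 65.0% in WT, 52.4% in KO sample 1 and 20.02% in KO sample 2. The 2 Ppp3ca rows differ in length by 30 bases (4816 and 4846), and the values show that reads were divided between rows. KO sample 2 was the shallowest library and had about 102 reads on Ppp3cc and 45 on Ppp3ca in all. With the most abundant row alone, the log2 fold change of Ppp3ca was -0.78 (limma adjusted p = 0.921) in place of 0.20.

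**Figure D3:**
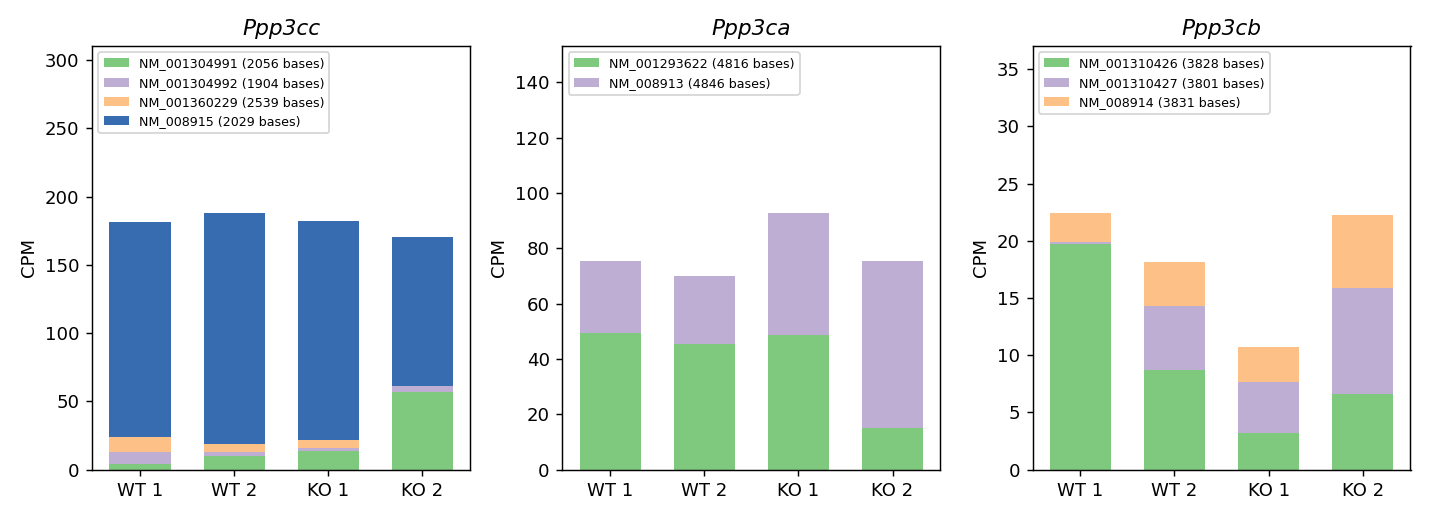
CPM of the deposited transcript rows of Ppp3cc, Ppp3ca and Ppp3cb stacked to the gene sum, one bar per library. KO 2 differs from the other libraries in how Ppp3cc and Ppp3ca are divided between rows, while its Ppp3cc sum of 171 CPM is near the 181 to 188 CPM of the others.

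PP1 catalytic transcripts were listed mostly under the copy. Ppp1cc (chromosome 5, from 122296338 to 122313337) was at 59.8 and 46.6 CPM in WT against 59.6 and 53.8 CPM in KO. Ppp1ccb was at 806 and 766 CPM in WT against 812 and 806 CPM in KO, which per kilobase was 22.4 to 27.7 times Ppp1cc in the same library. Summed, Ppp1cc and Ppp1ccb were at 865 and 813 CPM in WT and 872 and 860 CPM in KO. The genotypes overlapped for Ppp1cc and for the sum, with log2 fold changes of 0.10 (SE 0.21, 95% interval -0.38 to 0.57, limma adjusted p = 0.967) and 0.05. Ppp1ca, the alpha catalytic subunit (chromosome 19, from 4242173 to 4245419), was at 36.2 and 29.4 CPM in WT against 19.0 and 32.0 CPM in KO. KO sample 1, with about 14 reads, was the low one, and KO sample 2 lay between the WT samples (log2 fold change -0.39, SE 0.30, limma adjusted p = 0.942). It was -0.03 without KO sample 1 and -0.75 without KO sample 2. Its last 223 bases overlap Rad9a on the other strand, which was at 0 to 11.04 CPM, and whether counting used strand is not given.

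The balance of gamma and alpha PP1 depended on where Ppp1ccb was counted. With Ppp1cc as listed, its share of the summed Ppp1cc and Ppp1ca level per kilobase was 48.3% and 46.9% in WT and 64.2% and 48.2% in KO. The KO mean exceeded the WT mean by 8.61 percentage points, against an SD of 0.976 between the WT samples and 11.3 between the KO samples, and by 0.643 points without KO sample 1. The Ppp1cc sum includes NR_156472, a RefSeq non-coding RNA entry, which held 14.2% and 32.0% of the gene in WT and 1.86% and 40.2% in KO. Without division by length, the Ppp1cc share was 62.3% and 61.3% in WT and 75.9% and 62.7% in KO. With only the most abundant row of each gene, the share per kilobase was 44.7% and 38.1% in WT and 63.8% and 36.5% in KO. With Ppp1ccb counted as gamma, the share was 95.6% and 96.2% in WT and 97.7% and 96.1% in KO. Adding the beta subunit gene Ppp1cb, at 43.0 and 33.7 CPM in WT and 48.1 and 45.2 CPM in KO, to that total left 94.0% to 95.8%. The sums with Ppp1ccb were added after the data were seen. With Ppp1cb but without Ppp1ccb, the mean Ppp1cc share was 39.4% in WT and 43.9% in KO, a difference of 4.45 points.

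**Figure D4:**
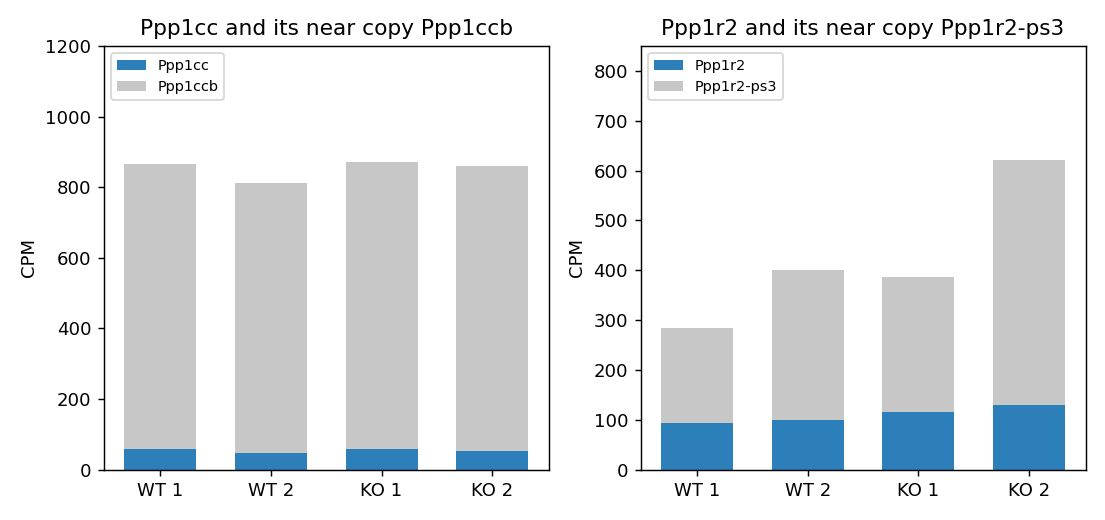
CPM listed under Ppp1cc (left) and Ppp1r2 (right), each stacked with its near copy, one bar per library. Ppp1ccb carries 766 to 812 CPM against 46.6 to 59.8 CPM under Ppp1cc, and Ppp1r2-ps3 carries 191 to 491 CPM against 94.0 to 130 CPM under Ppp1r2.

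The PP1 regulators held the 2 smallest p-values of the 10 genes, in opposite directions. Ppp1r2 (chromosome 16, from 31070359 to 31094096) was at 94.0 and 100.1 CPM in WT against 115 and 130 CPM in KO. Both KO samples lay above both WT samples, with a log2 fold change of 0.33 (SE 0.16, 95% interval -0.03 to 0.70). Ppp1r11 (chromosome 17, from 37259247 to 37262685) was at 768 and 875 CPM in WT against 605 and 754 CPM in KO. Both KO samples lay below both WT samples, KO sample 2 by little, with a log2 fold change of -0.28 (SE 0.15, 95% interval -0.62 to 0.06). Neither passed after adjustment over all genes (limma unadjusted p = 0.0666 and 0.0940, adjusted p = 0.942 for each). Pooled by genotype, the KO over WT ratio of estimated reads was 1.25 for Ppp1r2 (343 and 164 reads, exact 95% interval 1.03 to 1.51). It was 0.816 for Ppp1r11 (2903 and 904 reads, 0.756 to 0.879). These intervals leave out the spread between samples, and for every other member such an interval included 1. Without KO sample 2 the log2 fold change of Ppp1r11 was -0.44 and passed (limma adjusted p = 0.0063), as did 568 genes in all (3.20%) in place of 1. That fit sets 1 KO library against 2 WT libraries, so the spread comes from the WT pair and the lone KO sample is assumed to vary like it. Without KO sample 1 it was -0.12 and did not pass, where 7.04% of all genes did, under the same assumption.

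Ppp1r7 (chromosome 1, from 93271350 to 93295339) was at 59.0 and 56.9 CPM in WT against 64.1 and 58.5 CPM in KO. The genotypes overlapped, and the log2 fold change was 0.08 (SE 0.18, 95% interval -0.34 to 0.50, limma adjusted p = 0.973). For inhibitor 2 a near copy matters again. Ppp1r2-ps3, annotated in GENCODE as a processed pseudogene on chromosome 19, matched the Ppp1r2 mRNA at 597 of 606 aligned bases (98.5%). It was at 191 and 301 CPM in WT against 272 and 491 CPM in KO, with overlapping genotypes and KO sample 2 the highest. Summed with it, Ppp1r2 had a log2 fold change of 0.54 and the genotypes overlapped (285 and 401 CPM in WT, 387 and 621 CPM in KO), a sum also added after the data were seen. That sum leaves out Ppp1r2-ps7, at 72.9 and 66.1 CPM in WT and 63.9 and 85.5 CPM in KO. It also leaves out Ppp1r2-ps9, at 39.0 and 42.8 CPM in WT and 30.7 and 65.2 CPM in KO. Their likeness to the Ppp1r2 mRNA was not measured.

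Across the set, 0 of 10 genes passed the adjusted threshold of 0.05 in either direction, beside 0.00564% of all 17744 genes tested (1 gene, lower in KO), and 0 of 10 had an unadjusted limma p under 0.05, beside 4.69% of all genes. The genotypes did not overlap in 3 of 10 genes (Ppp3ca and Ppp1r2 higher in KO, Ppp1r11 lower), beside 34.4% of all genes, so the set stood near the background. Of the 10 genes, 6 had a higher mean log2 level in KO and 4 a lower one, with a median log2 fold change of 0.09 beside -0.05 over all genes tested. The depth of the libraries moved with genotype throughout, and its part in these values was not tested.

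**Figure D5:**
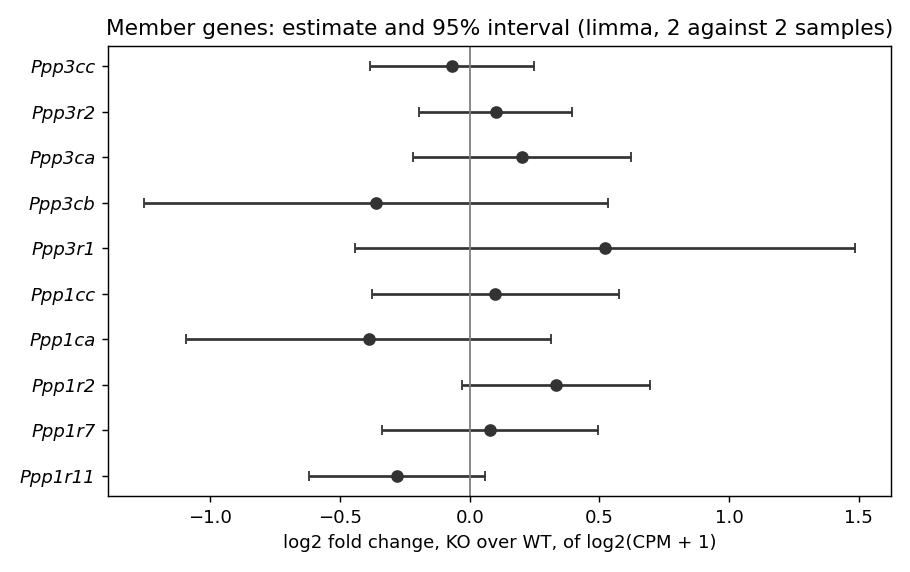
Log2 fold change of each gene (KO over WT, on log2(CPM + 1)) with its 95% interval from limma. All 10 intervals include 0, and they are narrowest for Ppp3cc, Ppp3r2, Ppp1r2 and Ppp1r11.

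Partners of these enzymes were read from lists. Of 15 genes for calcineurin partners and regulators, 11 were higher in KO, 4 lower and 0 passed in limma (median log2 fold change 0.16), with 1 (Chp2) at an unadjusted p under 0.05, beside 4.69% of all genes; over all genes tested 7919 were higher and 9825 lower. The member with the smallest p was Chp2, a calcineurin B homologue (log2 fold change 0.99, SE 0.41). Chp2 was at 5.90 and 6.64 CPM in WT against 10.7 and 16.7 CPM in KO. Those values stand for about 10 and 12 reads in WT and 8 and 10 reads in KO. Next by p were the transcription factor genes Nfatc1 and Nfatc4, substrates of calcineurin, with 1 to 7 reads in any library. Spata33, which in mouse sperm tethers calcineurin to the mitochondria, was at 551 and 538 CPM in WT and 430 and 547 CPM in KO; this gene was chosen after its values were seen. Of 37 tested genes, from a list of 42 symbols for other PP1 regulatory subunits, 20 were higher, 17 lower and 0 passed in limma (median 0.05). Ppp1r18 was at 35.8 and 40.9 CPM in WT and 24.8 and 24.0 CPM in KO. Ppp1r36 was at 131 and 113 CPM in WT and 150 and 174 CPM in KO, and Ppp1r9a, the neurabin gene, at 19.9 and 30.6 and at 41.5 and 38.4 CPM. These 3 genes had unadjusted limma p-values of 0.0259, 0.0374 and 0.0386, and the genotypes did not overlap in any of them. Over the list 3 of 37 genes had such a p and 12 of 37 did not overlap, beside 4.69% and 34.4% of all genes.

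Kinases, anchors and 14-3-3 proteins linked to sperm PP1 counted 11 genes, with 4 higher, 7 lower and 0 passing in limma (median -0.05). Of these, 0 had an unadjusted limma p under 0.05 and 4 did not overlap, beside 4.69% and 34.4% of all genes. The 14-3-3 gene Ywhab was at 58.0 and 53.8 CPM in WT against 76.1 and 65.2 CPM in KO. Its relative Ywhae was at 206 and 222 CPM in WT against 270 and 235 CPM in KO. The anchor gene Akap1 was at 897 and 1023 CPM in WT and 887 and 815 CPM in KO. Among 8 other catalytic subunits of the same phosphatase family, 3 were higher, 5 lower and 0 passed in limma (median -0.05). In this list 0 had an unadjusted limma p under 0.05 and 4 of 8 did not overlap, beside the same shares of all genes. Ppef2 had 6 and 5 reads in WT and 0 and 1 in KO, and Ppp2ca, a catalytic subunit of PP2A, was at 29.2 and 36.9 CPM in WT and 38.7 and 39.7 CPM in KO.

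The genes most like 3 of the members in level across the 4 libraries were found by the root mean square difference in log2(CPM + 1). For Ppp3cc they were Grip1 (0.03), Tsc22d4 (0.04) and Tnks (0.05), for Ppp3r2 they were Gk2 (0.04), Cabs1 (0.07) and 4930453N24Rik (0.08), and for Ppp1cc they were Dgat1 (0.04), Gak (0.06) and Rbm26 (0.06). With 4 libraries of nearly flat levels this measure reflects mainly the level itself.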

How the data were processed

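Testis RNA libraries of 2 WT and 2 Tas1r3 KO samples, grouped by title, were prepared from total RNA with the Ion Total RNA-Seq Kit v2, per the labels' protocols. The authors deposited CPM per RefSeq transcript (columns sum to 1000000), made with STAR and Partek on mm39, per the submitters' processing notes, with versions not given in the sources used here. Sample tables matched the series table in 4 of 4 columns. Reads had been divided between transcripts: 23.0% to 48.1% of genes came out whole within 0.02 reads, so no count test was used.

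Rows were summed per symbol. Genes of at least 1 CPM in at least 2 libraries were tested with limma 3.58.1 under R 4.3.3 after taking log2(CPM + 1), with a trend of variance on level and Benjamini-Hochberg adjustment at 0.05. On simulated data with 4-fold changes the fit called 75.1% of the changed genes. The spread between simulated samples was set and not measured from these samples. That share is therefore not the share of real changes found here, nor of changes smaller than 4-fold. Intervals and floors use 95% and 3 reads. With 2 against 2 samples an exact two-sided permutation test cannot go below 0.333 and was not used. Shares and list counts carry no test. Transcripts were aligned with Biopython 1.88. Named genes were all members, the 3 genes of each list with the smallest p, and the 3 nearest in level to Ppp3cc, Ppp3r2 and Ppp1cc. Spata33, the near copies Ppp1ccb and Ppp1r2-ps3 and the relatives Ppp1r2-ps7 and Ppp1r2-ps9 were named outside this rule, after their values were seen. So were the overlapping genes Grin3a, Rad9a and 1810062O18Rik. Members and lists were chosen with earlier results of these data known. Alternatives covered pseudocount, filter, scaling, trend, block, weights, top transcript, near copies and each sample left out. A gene of one list is not reported here.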

Additional observations from a re-analysis of the deposited data

How the results depend on the processing

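Of 142 log2 fold changes of the 10 genes under 15 alternatives, 137 kept their direction and stayed short of the adjusted threshold. Those that reversed were Ppp3r2 without KO sample 2 (-0.0066, with a range of -0.0066 to 0.21 when any 1 sample was left out), Ppp3cb without KO sample 1 (0.13, range -0.86 to 0.13) and Ppp1cc without WT sample 2 (-0.077, range -0.077 to 0.28), for which the cause was not tested, and Ppp3ca with the most abundant transcript row alone (-0.78), which leaves out the row that was higher in KO. Ppp1r11 passed without KO sample 2 (-0.44), a fit of 1 KO library whose spread comes from the WT pair. Members past the threshold numbered 0 under every alternative that kept all samples, and 0 to 1 when a sample was left out. Over all genes 1 passed; the number was 0 with a pseudocount of 0.1 CPM, 0 without a mean trend, 0 with the most abundant row alone, 2 with precision weights from estimated reads (Ptchd3 and Smok3b), 23 with the replicate number as a block, and 0 to 1249 with a sample left out. The labels do not say that the numbers pair samples, the deviations of same-numbered samples correlated at -0.0054 over genes, and the block called 0 members. The KO minus WT difference in the Ppp3cc share was -2.86 points without division by length and 4.27 points with the most abundant row alone; with a sample left out it was -2.79 to -0.55. Leaving out a sample moved the Ppp3r2 share difference between -1.35 and -0.09 points and the Ppp1cc share difference between 0.643 and 16.6 points. Depth limits the low genes most: 3 reads are worth 1.66 to 1.74 CPM in WT and 4.01 to 5.02 CPM in KO.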
